A study of Mus musculus with 15 samples.

Results

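Fatty acid oxidation was described across 33 genes of the 47069 in the expression table, chosen by symbol: the fatty acid transporter and acyl-CoA synthetases, the carnitine shuttle, the peroxisomal and mitochondrial spirals of beta-oxidation, their auxiliary enzymes and the electron transfer flavoproteins. All 33 symbols were found, and the values below are transcript levels in TPM (a measure of transcript abundance that is scaled for transcript length and sums to the same total in every library). The 15 RNA-Seq libraries were 12 of single proximal tubules microdissected from kidney and labelled PTS2, and 3 of whole kidney. All came from male C57BL/6 mice aged 2 months, with no treatment listed, and cDNA was made with a kit for very small RNA amounts. The tubules formed 3 sets of 4, labelled m1, m2 and m3, with no statement of what a set shares. No label ties a library to an animal, so every p-value below measures only the spread between these libraries, which may be technical.

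Fatty acids enter a cell, are joined to coenzyme A, and are shortened step by step in mitochondria or in peroxisomes. Mitochondria take long chains in through the carnitine shuttle and pass the electrons to the respiratory chain, whereas peroxisomes start very long and branched chains with acyl-CoA oxidases that make hydrogen peroxide. The proximal tubule is known as a heavy user of fatty acids for energy and as a segment rich in peroxisomes.

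The libraries stood apart from one another in markers of other segments. Summed TPM of 3 S1 markers (Slc5a2, Slc5a12 and Slc2a2) was 50.1 ± 14.0 in PTS2 (SD, n = 12) and 858 ± 37.5 in whole kidney (SD, n = 3). For 3 markers usually placed in S3 (Slc7a13, Slc5a8 and Slc22a19) it was 2380.2 ± 392 and 1014 ± 138, and for the S2 markers Slc22a6 and Slc22a8 it was 653 ± 268 and 757 ± 33.9. Tubules labelled PTS2 thus held more S3 marker RNA than whole kidney, and their S2 marker sums overlapped those of whole kidney. The S2 sum joins genes that differed. Mean Slc22a8 was 68.0 TPM in PTS2 and 272 in whole kidney, without overlap, a log2 difference of -2.21 (limma, adjusted p = 0.000882). Mean Slc22a6 was 585 and 486 TPM, with overlap, and did not pass (limma, adjusted p = 0.670). The S3 marker Slc22a19 was higher in PTS2 by 1.26 (limma, adjusted p = 0.0105), but its libraries overlapped those of whole kidney. The 5 thick ascending limb markers summed to 1441 TPM in m3 replicate 3 and to between 4.75 and 55.8 in the other 11 tubule libraries, against 2425 to 2723 in whole kidney. Sums over the 3 distal convoluted tubule markers were at most 0.55 in PTS2 and at least 202 in whole kidney. The 5 markers shared by all proximal tubule segments did not rise. They summed to 3701 ± 1019 TPM in PTS2 (SD, n = 12) and 5040 ± 115 in whole kidney (SD, n = 3), with overlap. Among them Slc4a4 was lower in PTS2 by 1.29 (limma, adjusted p = 0.000371), and Lrp2, Cubn, Slc34a1 and Hnf4a did not pass. In these bulk samples, fewer cells of a type and less RNA per cell cannot be told apart, and the part of cell composition in the differences below was not tested.

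Fatty acid oxidation RNA made up more of the tubule libraries than of whole kidney. The 33 genes together took 2.30% ± 0.229 of all TPM in PTS2 (SD, n = 12) and 1.40% ± 0.0401 in whole kidney (SD, n = 3), and the lowest tubule library, at 1.90%, lay above the highest kidney library, at 1.43%. The fatty acid transporter gene Slc27a2 alone accounted for 9166 of the 23023 TPM in PTS2. In the limma test of log2(TPM + 1) across 12039 genes, at a Benjamini-Hochberg adjusted p under 0.05, 28 of the 33 differed, against 51.2% of all genes: 19 rose in PTS2 and 9 fell. Over all genes tested, 9.68% were higher in PTS2 and 41.5% were lower. Libraries of the 2 groups did not overlap for 17 genes that were higher and 6 that were lower, against 5.76% and 32.0% of all genes. The median log2 difference of the 33 genes was 0.33, and that of all genes tested was -0.27. Median-of-ratios rescaling moved the median of all genes to 0.00, and then 23 of the 33 were higher (Crat, Acads, Hadh and Decr2 joining) and 5 lower, against 23.6% and 23.1% of all genes; quantile normalization moved it to 0.16 and gave 19 higher and 6 lower, against 34.6% and 18.9%.

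**Figure D1:**
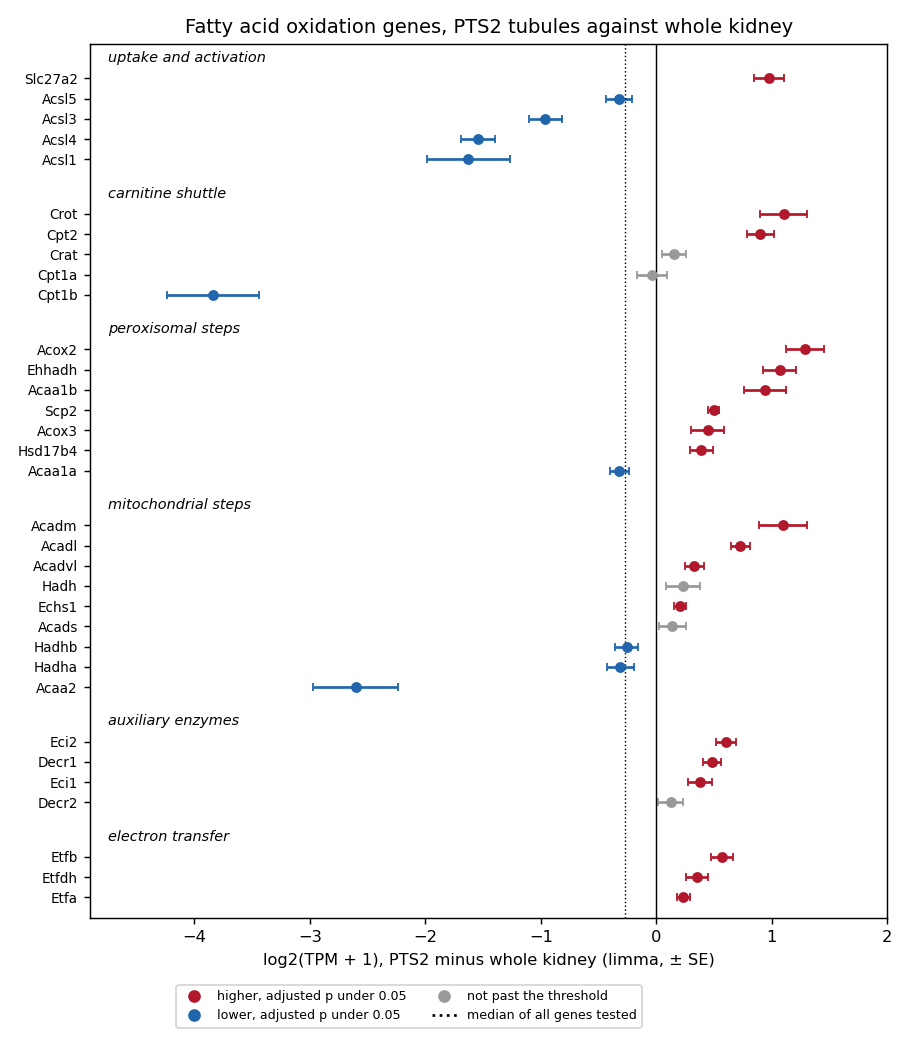
Log2(TPM + 1) difference between PTS2 tubules (n = 12) and whole kidney (n = 3) for the 33 genes, by role, as limma estimates with standard errors. Red points mark 19 genes that were higher and blue points 9 that were lower at an adjusted p under 0.05; the dotted line is the median of all genes tested, -0.27. Under median-of-ratios rescaling Hadhb and Cpt1a lie above 0, and under quantile normalization Cpt1a does.

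Promoters were read for the most abundant members and for the peroxisomal thiolase pair, since these carry the levels and the contrast described below. RefSeq promoters on GRCm38.p6, running from 250 bases before to 50 bases after the start, were matched for 28 of the 33 genes. Slc27a2 (ENSMUSG00000027359) lies at chr2:126552774-126553073 on the plus strand, Acadm (ENSMUSG00000062908) at chr3:153944594-153944893 on the minus strand, Acaa1b (ENSMUSG00000010651) at chr9:119157044-119157343 on the minus strand, and Acaa1a (ENSMUSG00000036138) at chr9:119341044-119341343 on the plus strand. Capitals mark AGGTCA (the half-site bound by many nuclear receptors), CCAAT and GGGCGG (a GC box) on either strand; matches may run into each other.
Slc27a2: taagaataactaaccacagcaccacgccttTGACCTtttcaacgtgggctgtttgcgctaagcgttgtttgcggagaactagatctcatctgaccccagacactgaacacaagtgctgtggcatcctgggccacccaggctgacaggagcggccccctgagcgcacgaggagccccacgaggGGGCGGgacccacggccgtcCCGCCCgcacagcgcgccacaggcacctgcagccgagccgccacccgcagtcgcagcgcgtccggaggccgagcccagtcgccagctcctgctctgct
Acadm: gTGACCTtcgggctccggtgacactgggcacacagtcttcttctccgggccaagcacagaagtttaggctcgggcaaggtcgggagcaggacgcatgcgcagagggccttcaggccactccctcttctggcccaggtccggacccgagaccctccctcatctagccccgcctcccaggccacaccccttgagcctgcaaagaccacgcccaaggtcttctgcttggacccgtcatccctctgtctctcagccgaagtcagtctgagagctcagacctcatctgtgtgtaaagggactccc
Acaa1b: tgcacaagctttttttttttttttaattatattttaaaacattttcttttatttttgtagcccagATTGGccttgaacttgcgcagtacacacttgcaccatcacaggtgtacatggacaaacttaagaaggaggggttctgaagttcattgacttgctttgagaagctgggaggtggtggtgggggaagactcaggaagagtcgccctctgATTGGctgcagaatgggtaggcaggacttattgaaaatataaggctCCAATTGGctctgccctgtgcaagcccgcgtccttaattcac
Acaa1a: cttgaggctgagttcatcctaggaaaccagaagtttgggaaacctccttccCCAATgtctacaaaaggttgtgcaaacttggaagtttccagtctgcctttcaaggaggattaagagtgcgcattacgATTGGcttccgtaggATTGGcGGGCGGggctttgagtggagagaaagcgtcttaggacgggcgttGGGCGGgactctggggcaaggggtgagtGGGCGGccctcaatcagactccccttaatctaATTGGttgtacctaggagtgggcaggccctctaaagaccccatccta
The thiolase pair differed in this window: Acaa1a held GGGCGG and CCAAT, and Acaa1b held CCAAT without GGGCGG. On either strand, AGGTCA was present in 6 of the 28 matched genes (Slc27a2, Acadm, Acadvl, Cpt1a, Echs1 and Scp2), against 16.3% of 32851 promoters. GGGCGG was present in 22 genes against 35.7% of promoters, and CCAAT in 14 genes against 37.4%. Counts for members are per gene, whereas the percentages are per promoter. The 28 genes have 30 promoters, of which 6 held AGGTCA, 22 GGGCGG and 14 CCAAT. The background was all 32851 promoters, whether or not their genes were tested here, so an excess was not tested. The direct repeat AGGTCANAGGTCA, the spacing read by PPAR receptors, was in none of the 28 genes and in 0.0396% of promoters. These are matches of letters in a short window.

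Uptake and activation moved in opposite directions: the transporter gene rose and all 4 acyl-CoA synthetases fell, against 9.68% higher and 41.5% lower among all genes. Slc27a2 encodes FATP2, a transporter with very long-chain acyl-CoA synthetase activity. Its TPM was between 6904 and 11041 in the 12 tubule libraries, with a median of 9288, and was 4363, 5131 and 4366 in whole kidney. Every tubule library lay above every kidney library. The ratio of means was 1.98, and the log2 difference was 0.98 ± 0.13 (SE; limma, adjusted p = 7.39e-06).

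The long-chain acyl-CoA synthetases, which make the acyl-CoA substrate, were low in the tubules. Acsl1 TPM was 11.7 to 55.3 in PTS2, with a median of 31.9, against 122, 76.2 and 80.5 in whole kidney, without overlap. Its log2 difference was -1.63 ± 0.36 (limma, adjusted p = 0.00129). For Acsl4, which prefers polyunsaturated chains such as arachidonate, PTS2 libraries ran from 3.01 to 5.71 TPM (median 4.76) and whole kidney gave 15.2, 14.2 and 16.3. That gap was -1.55 ± 0.15 on the log2 scale (limma, adjusted p = 1.93e-07). Acsl3 stood at 9.04 to 16.4 TPM in PTS2 (median 10.8) and at 20.8, 22.9 and 24.6 in whole kidney, again with no shared range. The Acsl3 difference was -0.96 ± 0.14 (limma, adjusted p = 3.78e-05). Acsl5 differed less, with 34.3 ± 4.48 TPM in PTS2 (SD, n = 12) and 42.9 ± 2.78 in whole kidney (SD, n = 3), overlapping ranges and a log2 difference of -0.32 (limma, adjusted p = 0.0265). The Acsl5 difference lay near the median of all genes, -0.27. Its call was lost without any single kidney library (adjusted p from 0.0522 to 0.126) and under both rescalings.

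In the carnitine shuttle, the genes for the entry enzyme of liver type, Cpt1a, and the muscle type, Cpt1b, behaved differently. Cpt1a, which makes acylcarnitine at the outer mitochondrial membrane and sets the pace of long-chain oxidation, was between 102 and 182 TPM in PTS2 (median 142) and was 141, 157 and 132 in whole kidney. The ranges overlapped, and the log2 difference of -0.04 ± 0.13 did not pass the limma test (adjusted p = 0.830); its sign turned under both rescalings. Cpt1b was between 0.03 and 0.37 TPM in 11 tubule libraries and 5.15 in m3 replicate 3, against 18.5, 18.1 and 17.1 in whole kidney. The Cpt1b difference was -3.84 ± 0.40 (limma, adjusted p = 4.97e-07), and -4.04 without m3 replicate 3 (adjusted p = 7.67e-14). That library is the tubule in which thick ascending limb markers summed to 1441 TPM; their part in its Cpt1b level was not tested.

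Cpt2 and Crot, which act after and beside that step, rose. Cpt2 returns acylcarnitine to acyl-CoA inside mitochondria, and its TPM was 298 ± 45.4 in PTS2 (SD, n = 12) and 157 ± 1.83 in whole kidney (SD, n = 3), a log2 difference of 0.90 ± 0.12 (limma, adjusted p = 7.5e-06). Crot, the peroxisomal carnitine octanoyltransferase that lets shortened chains leave the peroxisome, reached 576 to 1269.6 TPM in PTS2 (median 891) and 476, 489 and 349 in whole kidney. No tubule library fell into the kidney range. The Crot difference was 1.10 ± 0.20 (limma, adjusted p = 0.000266). Crat, the carnitine acetyltransferase, was 154 ± 19.8 and 137 ± 6.62 TPM and did not pass the test (limma, adjusted p = 0.245).

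**Figure D2:**
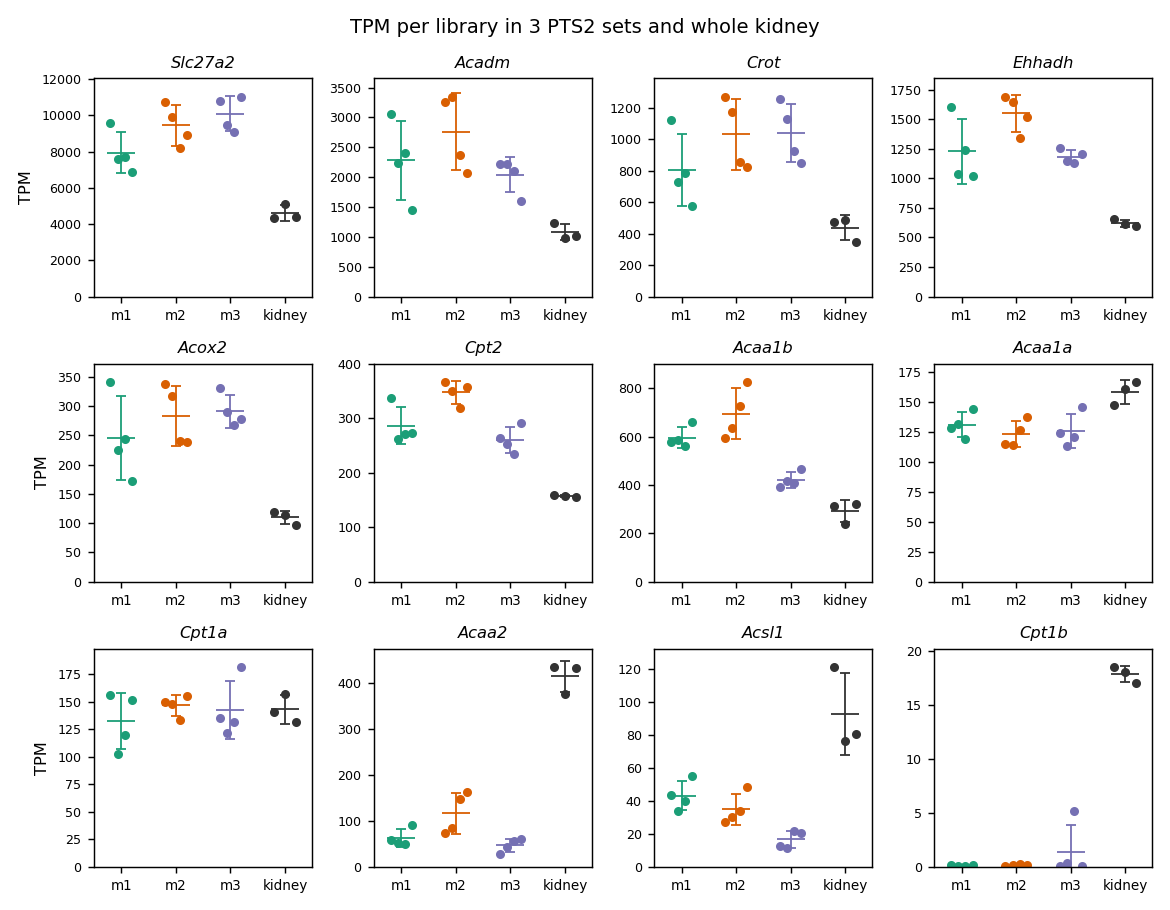
TPM of 12 genes in each library of the PTS2 sets m1, m2 and m3 (4 points each) and whole kidney (3 points), on linear axes from 0, with the mean and SD of each group; the lower SD bar of Cpt1b in m3 ends at the axis. Slc27a2, Acadm, Crot, Ehhadh, Acox2, Cpt2 and Acaa1b lie above whole kidney in every tubule library, Acaa1a, Acaa2, Acsl1 and Cpt1b lie below, and Cpt1a overlaps.

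Of the 7 genes of the peroxisomal steps, 6 rose and 1 fell, against 9.68% higher and 41.5% lower among all genes. Their median log2 difference was 0.50, against -0.27 over all genes. Median-of-ratios rescaling gave 6 higher and 0 lower, against 23.6% and 23.1% of all genes, with medians of 0.79 and 0.00. Quantile normalization gave 6 and 1, against 34.6% and 18.9%, with closer medians of 0.48 and 0.16. Acox2 and Acox3 encode the oxidases that start branched chains, including bile acid intermediates. Acox2 TPM was 171 to 342 in PTS2 (median 272) and 119, 114 and 97.0 in whole kidney, a ratio of means of 2.49. Its log2 difference of 1.29 ± 0.17 was the largest of the 33 genes in the upward direction (limma, adjusted p = 7.17e-06). Acox3 was 215 ± 37.6 TPM against 156 ± 19.0, with overlapping libraries; its difference of 0.44 passed (limma, adjusted p = 0.0178) but did not without whole kidney replicate 1 (adjusted p = 0.118).

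The next peroxisomal steps have 2 bifunctional enzymes. Ehhadh, the L-bifunctional enzyme, had 1019.9 to 1689.95 TPM in PTS2 (median 1249.6) and 652, 617 and 592 in whole kidney. Its groups were far apart, with a log2 difference of 1.07 ± 0.14 (limma, adjusted p = 8.46e-06). Hsd17b4, the D-bifunctional enzyme needed for branched chains, showed a smaller step, from 169 ± 6.63 TPM in whole kidney (SD, n = 3) to 224 ± 25.0 in PTS2 (SD, n = 12), a log2 difference of 0.39 ± 0.10 (limma, adjusted p = 0.00294). Ehhadh TPM exceeded Hsd17b4 TPM in every library, in PTS2 and in whole kidney alike.

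The peroxisomal thiolases, which cut off the 2-carbon unit at the end of each round, split. Acaa1b rose, with 392 to 828 TPM in PTS2 (median 582) against 314, 239 and 322 in whole kidney, and a log2 difference of 0.94 ± 0.18 (limma, adjusted p = 0.000441). Acaa1a, its close copy, was 113 to 146 TPM in PTS2 (median 126) and 148, 161 and 167 in whole kidney, and fell by 0.32 ± 0.08 (limma, adjusted p = 0.00403). Neither gene's groups overlapped, and the Acaa1a difference was -0.03 under median-of-ratios rescaling (adjusted p = 0.803). The copies share sequence: 35.5% of the 50-base stretches of the 1689-base Acaa1b transcript also occur in Acaa1a transcripts, so the split of reads between them is uncertain. Summed as 1 gene, the pair was higher in PTS2 by 0.61 (limma, adjusted p = 0.00324). Scp2, whose longer product is the thiolase for branched chains, was 1249.4 ± 47.6 TPM in PTS2 (SD, n = 12) and 885 ± 26.5 in whole kidney (SD, n = 3), a log2 difference of 0.50 ± 0.05 (limma, adjusted p = 3.72e-07).

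The mitochondrial steps were mixed: of 9 genes, 4 rose, 3 fell and 2 did not pass, against 9.68% higher and 41.5% lower among all genes. Their median log2 difference was 0.21, against -0.27 over all genes. Median-of-ratios rescaling gave 6 higher and 1 lower, against 23.6% and 23.1% of all genes, with medians of 0.50 and 0.00. Quantile normalization gave 4 and 1, against 34.6% and 18.9%. Under it the mitochondrial median of 0.12 lay below the 0.16 of all genes. Of the 4 acyl-CoA dehydrogenases, which take the first electrons from chains of different length, 3 rose. Acadm, the medium-chain enzyme, was the second most abundant of the 33 genes in PTS2, at 1448 to 3349 TPM (median 2229) against 1228, 983 and 1018 in whole kidney. Its libraries did not overlap, and the log2 difference was 1.10 ± 0.21 (limma, adjusted p = 0.00032). Acadl, the long-chain enzyme, was 656 ± 67.7 TPM in PTS2 (SD, n = 12) and 394 ± 4.61 in whole kidney (SD, n = 3), and rose by 0.73 ± 0.09 (limma, adjusted p = 2.05e-06). Acadvl, the very long-chain enzyme, rose by 0.33 (limma, adjusted p = 0.00286), and Acads, the short-chain enzyme, was 127 ± 17.3 and 114 ± 4.50 TPM (limma, adjusted p = 0.338).

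After the dehydrogenases, differences were small until the last step. Hadha and Hadhb encode the subunits of the trifunctional protein of the inner membrane; they were 60.4 ± 8.73 and 121 ± 13.8 TPM in PTS2 (SD, n = 12) and 74.4 ± 3.38 and 145 ± 11.8 in whole kidney (SD, n = 3). Both fell, by 0.31 and 0.26, with overlapping libraries (limma, adjusted p = 0.0333 and 0.0409). The Hadha call was lost when any kidney library was left out, and the Hadhb call without whole kidney replicate 1 or 3, m2 replicate 3, m3 replicate 2 or m3 replicate 3. Neither call held without the level filter (adjusted p = 0.0552 and 0.0657) or under either rescaling, and Hadhb was at 0.03 under median-of-ratios rescaling. Echs1, the short-chain enoyl-CoA hydratase, rose by 0.21 ± 0.05 (limma, adjusted p = 0.00254), and Hadh, the matrix hydroxyacyl-CoA dehydrogenase, was 535 ± 81.7 against 451 ± 11.1 TPM and did not pass (limma, adjusted p = 0.199), though it did without m1 replicate 2 (adjusted p = 0.00401).

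Acaa2, the matrix thiolase that closes the mitochondrial round, had the lowest tubule level relative to whole kidney among the mitochondrial steps. It was 28.1 to 162 TPM in PTS2 (median 59.3) and 435, 376 and 432 in whole kidney, where the ratio of means was 5.49 in favour of whole kidney. Every tubule library was under every kidney library, and the log2 difference was -2.60 ± 0.37 (limma, adjusted p = 1.92e-05). Within the 12 tubule libraries it was also among the most variable members, with a within-set SD of 0.49 on the log2 scale. That SD was 0.71 for Cpt1b, 0.36 for Acsl1, 0.35 for Acadm and 0.33 for Crot, and only 0.05 for Decr1, Etfa and Scp2.

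The peroxisomal and mitochondrial steps were also set side by side as summed TPM. The 7 peroxisomal genes summed to 3979 ± 361 TPM in PTS2 (SD, n = 12) and 2392 ± 42.9 in whole kidney (SD, n = 3), and the 9 mitochondrial genes to 4752 ± 714 and 3339.7 ± 160. The peroxisomal share of the 16 genes was 45.7% ± 2.19 in PTS2, between 42.6% and 49.4%, and 41.7% ± 0.742 in whole kidney, between 41.0% and 42.4%. The groups did not overlap, but the lowest tubule share lay close to the highest kidney share. The share depends on single genes. Without Acaa2 it was 46.1% ± 2.31 against 45.0% ± 0.713, and the groups overlapped. Without Acadm it was 62.5% ± 0.895 against 51.4% ± 0.284, and without Acaa1b it was 41.9% ± 2.04 against 38.6% ± 1.12, with overlap. The settings without Acaa2 and without Acadm were chosen after seeing the data, and no test was made of the share.

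**Figure D3:**
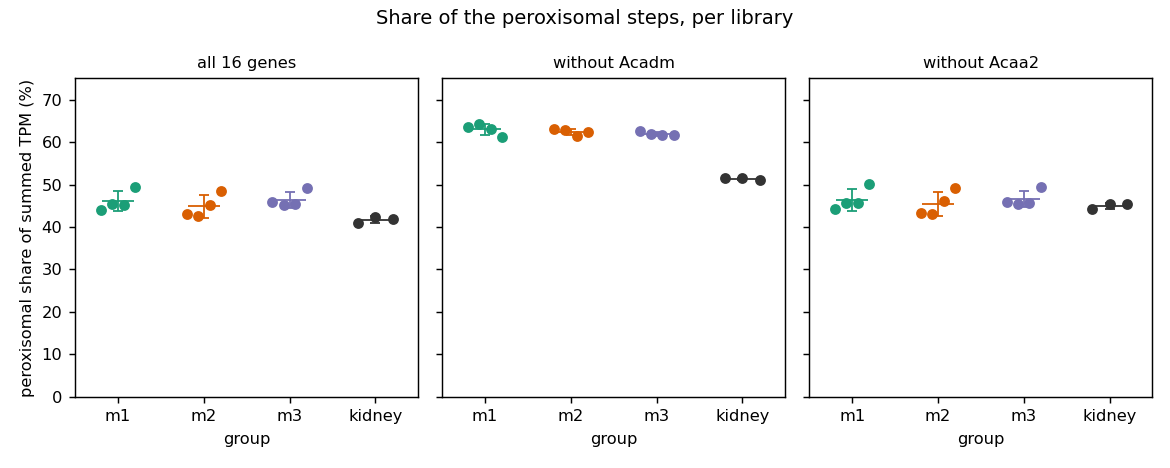
Peroxisomal share of the summed TPM of the 7 peroxisomal and 9 mitochondrial genes, in percent, per library, with the mean and SD of each PTS2 set (4 points) and whole kidney (3 points). With all 16 genes the tubule libraries lie at 42.6% to 49.4% and whole kidney at 41.0% to 42.4%; the gap is wider without Acadm, and the groups overlap without Acaa2.

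The auxiliary enzymes, which reposition double bonds of unsaturated chains, and the electron transfer genes were mostly higher in the tubules, with Decr2 alone not past the threshold. Among the 4 auxiliary genes, 3 rose: Eci2 by 0.60 ± 0.09, Decr1 by 0.49 ± 0.08 and Eci1 by 0.38 ± 0.10 (limma, adjusted p = 1.98e-05, 7.25e-05 and 0.00571). Eci2, an isomerase found in mitochondria and peroxisomes, was 289.7 ± 30.96 TPM in PTS2 (SD, n = 12) and 189.6 ± 3.43 in whole kidney (SD, n = 3). The peroxisomal dienoyl-CoA reductase Decr2 was 64.1 ± 7.85 and 58.5 ± 5.74 TPM (limma, adjusted p = 0.348). All 3 electron transfer genes rose. Beside both counts, 9.68% of all genes were higher in PTS2. That share was 23.6% under median-of-ratios rescaling and 34.6% under quantile normalization. Etfb, a subunit of the flavoprotein that collects electrons from the acyl-CoA dehydrogenases, was 1281 to 1866 TPM in PTS2 (median 1662) and 1172, 1030.1 and 1085 in whole kidney, without overlap. Its log2 difference was 0.57 ± 0.10 (limma, adjusted p = 0.000121), against 0.23 ± 0.06 for the partner subunit Etfa and 0.35 ± 0.09 for Etfdh, which hands the electrons to ubiquinone; Etfa did not pass under quantile normalization (adjusted p = 0.297).

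Neighbouring pathways from fixed lists gave a graded picture. Of 14 other peroxisomal enzymes tested, 7 rose and 1 fell, with a median log2 difference of 0.31; Amacr, which racemizes branched acyl-CoA, rose by 1.09, and the coenzyme A hydrolase gene Nudt19 rose by 1.00, from 2009 ± 540 TPM in whole kidney (SD, n = 3) to 4027 ± 888 in PTS2 (SD, n = 12). Of 15 peroxisome biogenesis genes, 4 rose and 1 fell (median 0.09). Pex14, of the import dock, rose by 0.41 and Pex26 fell by 0.51. Of 10 other mitochondrial fatty acid enzymes tested, 4 rose and 2 fell (median 0.22). Acad9 rose by 0.79, and Acss1, the mitochondrial acetyl-CoA synthetase, fell by 6.78 on the log2 scale, from 219 ± 23.8 TPM to 1.70 ± 3.42. Acss1 was 12.5 TPM in m3 replicate 3, the library with the thick ascending limb markers, and 0.28 to 1.61 in the other 11 tubule libraries; the part of those markers was not tested. The 17 genes of the tricarboxylic acid cycle, which burns the acetyl-CoA produced, showed 2 higher and 5 lower (median -0.07), with Idh3a at -0.68 and Ogdh at -0.43. All these counts stand beside the background of 9.68% higher and 41.5% lower among all genes.

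The 3 PTS2 sets differed from one another in a few of the genes. Of the 32 members that could be tested among the sets (Cpt1b was below the level filter), 5 passed the limma F test over 11300 genes at an adjusted p under 0.05, against 3.02% of all genes: Acsl1, Acaa1b, Eci1, Eci2 and Decr1. At an unadjusted p under 0.05 the count was 17, against 16.4% of all genes. The members together summed to 21297 ± 2511 TPM in m1, 24714 ± 2001 in m2 and 23058 ± 1035 in m3 (SD, n = 4 each), so m3 was not the lowest set in total, and Slc27a2 had its highest mean there. Comparisons of m3 with m2 called 7 members lower (Acsl1, Acaa1b, Eci1, Eci2, Decr1, Cpt2 and Acaa2) and 0 higher in limma, against 0.805% and 1.17% of all genes; 14 members had an unadjusted p under 0.05, against 11.1%. Between m3 and m1, 2 members were lower, Acsl1 and Acaa1b, and 0 higher, against 0.938% and 2.23%, with 7 at an unadjusted p under 0.05, against 18.4%. Between m2 and m1 limma called 0, against 0.239% lower and 0.301% higher, with 12 at an unadjusted p under 0.05, against 10.5%. These comparisons share the libraries of a set between them, so their values are given side by side.

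The members called lower in m3 than in m2 had the following levels, and of these Acaa1b and Acsl1 were also called lower than in m1. Acaa1b stood at 392, 419, 408 and 467 TPM in m3, at 593, 636, 727 and 828 in m2 and at 577, 587, 560.1 and 661 in m1. Every m3 library was under every library of the other sets, and the log2 difference was -0.71 ± 0.10 for m3 against m2 and -0.50 ± 0.10 for m3 against m1 (limma, adjusted p = 0.00181 and 0.0176). Acsl1 stood at 12.8, 11.7, 21.9 and 20.6 TPM in m3, 27.0, 30.1, 33.8 and 48.6 in m2 and 43.4, 34.1, 40.0 and 55.3 in m1. Here too m3 did not overlap the other sets, with differences of -1.03 ± 0.22 from m2 and -1.34 ± 0.22 from m1 (limma, adjusted p = 0.0359 and 0.00609).

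Among the auxiliary enzymes, Decr1 was 131, 138, 132 and 139 TPM in m3 and 161, 164, 167 and 171 in m2, and m1 lay between, at 156, 143, 154 and 148. The m3 and m2 groups were separate, a log2 difference of -0.29 ± 0.06 (limma, adjusted p = 0.0162). Eci1 was 207, 216, 215 and 221 TPM in m3, 253, 277, 306 and 292 in m2 and 237, 275, 256 and 264 in m1 (m3 against m2 -0.39 ± 0.07; limma, adjusted p = 0.0123). Eci2 was 274, 268, 273 and 271 TPM in m3, 336, 335, 318 and 325 in m2 and 290, 246, 283 and 257 in m1. For both isomerases every m3 library lay under every m2 library, and the Eci2 difference was -0.27 ± 0.06 (limma, adjusted p = 0.0411). Eci2 was not lower in m3 than in m1, with a difference of 0.01 ± 0.06. It was higher in m2 than in m1 by 0.29 ± 0.06, which did not pass (limma, adjusted p = 0.0719). Cpt2 and Acaa2 passed between m3 and m2 alone, by -0.42 ± 0.09 and -1.28 ± 0.29 (limma, adjusted p = 0.0339 and 0.0461). Against m1 they were at -0.13 and -0.44 in m3 (limma, adjusted p = 0.452 and 0.449). In m2 they were at 0.29 and 0.84 against m1 (limma, adjusted p = 0.250 and 0.323). Their F tests gave adjusted p = 0.0510 and 0.0704.

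Most members shared a direction in the 2 comparisons that involve m2, but not between m3 and m1. Of the 32, 29 were higher in m2 than in m1, against 59.5% of all genes, and 25 were lower in m3 than in m2, whereas 59.0% of all genes were higher in m3. Between m3 and m1, 17 were higher and 15 lower, against 65.5% of all genes higher. Median log2 differences were 0.21 for m2 against m1 and -0.20 for m3 against m2, with 0.04 over all genes in each, and 0.02 for m3 against m1, with 0.09 over all genes. The counts of calls rested on single libraries, and the F test count over all genes moved as well. The F test count of members was 10 without m1 replicate 1, and 2 without m2 replicate 2, 3 or 4, or without m3 replicate 1, 2 or 3. Over all genes it was 341 with every library and 563 without m1 replicate 1. In the settings that gave 2 members, it was 197 to 267 over all genes. The count of members between m3 and m2 was 1 without m3 replicate 1, 2 without m2 replicate 2 or 4, and 3 without m1 replicate 3, m2 replicate 3, or m3 replicate 2 or 3. Between m3 and m1 it was 5 without m1 replicate 1 and 1 without m1 replicate 4, m3 replicate 1 or m3 replicate 3; between m2 and m1 it was 5 without m1 replicate 1. Over the 19 alternatives, the Acaa1b difference between m3 and m2 and the Acsl1 difference between m3 and m1 stayed past the threshold in each. The other calls between m3 and m2 were lost in 10 of the 19 for Eci2, 9 for Acaa2, 8 for Cpt2, 7 for Acsl1, 5 for Decr1 and 1 for Eci1, and the Acaa1b call between m3 and m1 in 4.

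**Figure D4:**
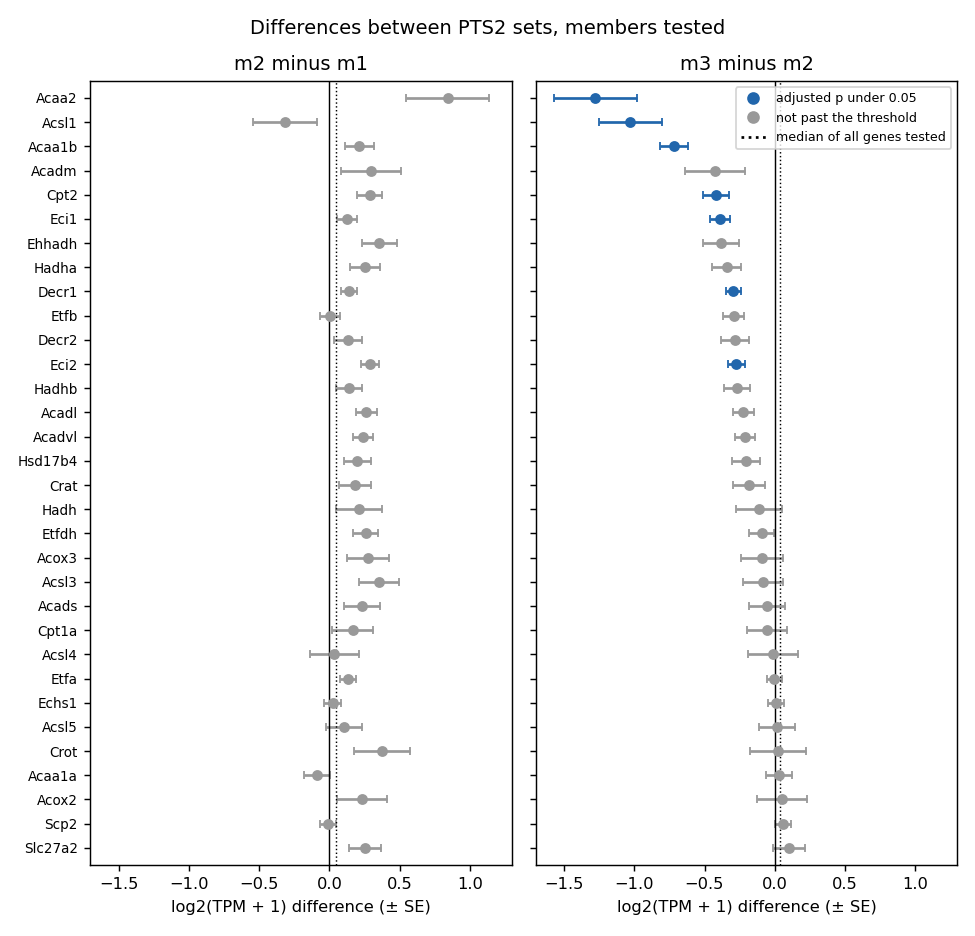
Log2(TPM + 1) difference between PTS2 sets, m2 minus m1 on the left and m3 minus m2 on the right, for the 32 members tested, as limma estimates with standard errors from 4 libraries a set. Blue points passed an adjusted p of 0.05 (0 on the left, 7 on the right); the dotted lines are the medians of all genes, 0.04 in both. The panels share set m2.

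Tubules numbered 4 and 1 within each set were also compared, a choice made after the values were seen; the set was a term in the fit, and the labels do not say what a number means. In number 4, Crot (-0.72), Acadm (-0.74) and Acox2 (-0.58) were lower on the log2 scale and Acaa2 (0.96) and Acaa1b (0.31) were higher (limma, adjusted p = 0.00326, 0.00604, 0.0251, 0.0182 and 0.0377), against 3.07% of all genes lower and 1.69% higher. Each of these directions was the same in all 3 sets. The 5 calls fell to 2 without m1 replicate 4, m2 replicate 1 or m2 replicate 4, to 3 without m3 replicate 1, and to 1 with no filter on low values. The S2 markers Slc22a6 and Slc22a8 summed to 1149, 892 and 1024 TPM in number 4 and to 704, 368 and 370.4 in number 1 of m1, m2 and m3. The S3 markers Slc7a13, Slc5a8 and Slc22a19 moved the other way, with sums of 1602, 2199 and 2239 TPM in number 4 against 2542, 2939.9 and 2878 in number 1. All 5 of these marker genes passed the test, with log2 differences of 1.07 for Slc22a6, 1.78 for Slc22a8, -0.31 for Slc7a13, -0.46 for Slc5a8 and -1.48 for Slc22a19 (limma, adjusted p = 0.00335, 0.00263, 0.0275, 0.0459 and 0.00329). The part of the S2 and S3 markers in the result was not tested.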

How the data were processed

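The deposited table holds TPM per gene and library, a unit read from the values, since all 15 columns sum to the same total to within rounding (999999 to 1000001). Per the submitters' processing notes, STAR 2.5.1b, RSEM 1.2.31 and genome build GRCm38.p5 were used; the annotation is not given in the sources used here. TPM keep no depth, so depth is unknown and no interval or floor is given. The 4 columns of the authors' means and errors were not used. Groups came from the labels' descriptions, and no 2 columns held identical values.

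Limma 3.58.1 (R 4.3.3; linear models, then eBayes with a trend) was run on log2(TPM + 1), which understates changes of low genes. A gene entered a fit when its mean TPM there was 1 or more. Tests were two-sided, and p-values were adjusted by Benjamini-Hochberg over every gene in the fit, with a threshold of 0.05. For PTS2 against whole kidney, sets entered as blocks with an estimated correlation of 0.0669. Sets were compared over 12 libraries by an F test, then pair by pair. The code was checked on simulated data. Tables and figures used Python 3.11.15, pandas 2.3.3, numpy 2.4.6 and matplotlib 3.10.9.

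The members and lists were chosen with earlier results of these data known. Every member could be named. Library values were given for called members without overlap among the 5 largest differences in either direction, members called among the sets, the 3 most abundant, Cpt1a, Acaa1a and Acaa1b; other pathway genes were named for the 2 largest called differences in each list. Alternatives were a pseudocount of 0.1, no filter, a minimum mean of 10 TPM, 2 rescalings, dropping mitochondrially encoded genes, a replicate block, independent tubule libraries, 1 mean per set, the thiolase pair summed, and each library left out.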

Additional observations from a re-analysis of the deposited data

Results flagged for a closer look

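In 4 of 102 checks of the highest or lowest library within a PTS2 set, that library lay far from the other 3; chance gives about 1 in 20, here 5.1. Cpt1b was 5.15 TPM in m3 replicate 3, and the next highest library of that set was at 0.37; the same library had the 1441 TPM of thick ascending limb markers, whose part was not tested. Cpt2 was 336.8 TPM in m1 replicate 1, with the next at 273.5. Hsd17b4 was 245.8 TPM in m3 replicate 4, with the next at 202.7. Etfb was 1866 TPM in m2 replicate 3, with the next at 1701.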

How the results depend on the processing

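Of the alternatives other than leaving out a library, 362 comparisons for single genes kept their direction and side of the threshold, 18 lost and 6 gained the call, and 3 turned sign. Leaving out libraries kept 593, lost 67, gained 1 and turned 2. Leaving out libraries moved Cpt1a between -0.094 and 0.032. The sign turns were Cpt1a at 0.25 under median-of-ratios rescaling, 0.0075 under quantile normalization, 0.0039 without m1 replicate 2 and 0.032 without whole kidney replicate 2, and Hadhb at 0.033 under median-of-ratios rescaling. That rescaling gave 5 members lower in PTS2 in place of 9; leaving out libraries gave 18 to 20 higher and 6 to 9 lower. Without the filter on low values, 30134 genes were tested and the F test called 196, with 3 members among them. There m3 against m1 called 1 member and m3 against m2 called 3. Between m2 and m1, a mean of at least 10 TPM and quantile normalization each called 1. Leave-one-out counts of members ran from 2 to 10 (F test), 0 to 5 (m2 against m1), 1 to 5 (m3 against m1) and 1 to 7 (m3 against m2). The F test count over all genes ran from 197 to 563. The peroxisomal share in PTS2 and whole kidney was 53.5% and 49.1% with Crat, Crot, Decr2 and Eci2 counted as peroxisomal, 41.9% and 38.6% without Acaa1b, 62.5% and 51.4% without Acadm, and 46.1% and 45.0% without Acaa2. It ran from 45.4% to 46.0% and from 41.4% to 42.1% with libraries left out. The planned share without Slc27a2 was not run, since that gene is in neither sum. With the replicate block, the F test called 11 members, and over all 11300 genes it called 888 in place of 341. Pair by pair, m2 against m1 called 3 members, m3 against m1 6 and m3 against m2 8. Counts over all genes for these pairs are not given here. PTS2 against whole kidney kept 19 members higher and 9 lower, beside 1258 and 5034 of 12039 genes. The labels do not say that a number marks a shared source: same-numbered pairs correlated at 0.143 on average (0.0254 to 0.273; 7 of 12 over 0.1), other pairs at -0.048, and 9 of 12 libraries correlated best with their own number. Unknown depth limits what can be said of Cpt1b and Acss1, which are near 0 TPM in most tubules.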
